A study of Mus musculus with 3 samples.

Results

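The TCL1 family of AKT coactivators was examined on the 3 mouse blastocyst arrays. Its members are Tcl1, Tcl1b1, Tcl1b2, Tcl1b3, Tcl1b4, Tcl1b5 and Mtcp1. Every non-control probe whose RefSeq accession belongs to 1 of these symbols was taken, which gave 8 probes for the 7 genes, of 33759 probes with a gene name for 23458 genes on the array. Tcl1 and each of the Tcl1b genes had 1 probe, and Mtcp1 had 2. The study asked how gene expression differs among embryos from young females, embryos from aging females, and aging embryos in which signaling by the chemokine CXCL5 through its receptor CXCR2 was blocked.

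All embryos came from superovulated ICR females, an outbred mouse stock, were flushed from the oviduct as zygotes 18 h after hCG and were cultured for 96 h in KSOM medium. The young group had mothers aged 3 to 6 weeks and received no treatment. The aging group had mothers aged 43 to 53 weeks and also received no treatment. The suppressed aging group had mothers of the same age range as the aging group, and its medium held 10 μg/ml anti-CXCL5 neutralizing antibody together with 10 nM CXCR2 antagonist. Each group is 1 pool of 30 blastocysts on 1 array. No group has a replicate, so no difference below has a test or an error between embryos, and the effect of the antibody cannot be told apart from that of the antagonist. In pooled whole embryos, fewer cells of a type and less RNA per cell cannot be told apart either.

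TCL1 family proteins are small β-barrel proteins that bind the pleckstrin homology domain of the kinase AKT and promote its activation at the cell membrane. AKT passes growth factor and PI3K signals on to cell survival, protein synthesis and the cell cycle. Tcl1 is known in mouse oocytes, early embryos and embryonic stem cells, where it lies downstream of the pluripotency factor Oct4 (gene Pou5f1), and in humans TCL1A is best known as an oncogene of T-cell prolymphocytic leukemia. The Tcl1b genes are a rodent expansion of TCL1B and are known from oocytes and cleavage-stage embryos. Mtcp1 is the family member on the X chromosome, and its 5′ exons are shared with Cmc4, a gene for a small mitochondrial protein outside the family.

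In the RefSeq annotation, Tcl1b2, Tcl1b1, Tcl1b5, Tcl1b3, Tcl1b4 and Tcl1 lie side by side in this order on chromosome 12, with no other annotated gene between them. Promoter sequences are shown because they tell how alike the 5 Tcl1b copies are in the DNA before their starts. They say nothing of how alike the transcripts or the probes are. All 7 members were matched in the RefSeq promoter table (GRCm38.p6), whose windows hold 300 bases, from 250 before the annotated start to 50 after it. The stretches of the Tcl1b genes around the run shared by all of them, in capitals, read 5′ to 3′ on the gene's strand:
Tcl1b1, chr12:105159504-105159588, plus strand: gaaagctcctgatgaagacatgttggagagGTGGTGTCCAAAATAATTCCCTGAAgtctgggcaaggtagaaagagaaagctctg
Tcl1b2, chr12:105146794-105146878, plus strand: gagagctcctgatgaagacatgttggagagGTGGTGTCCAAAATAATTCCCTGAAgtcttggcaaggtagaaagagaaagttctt
Tcl1b3, chr12:105190795-105190849, plus strand: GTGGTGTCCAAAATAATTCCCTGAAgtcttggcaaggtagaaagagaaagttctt
Tcl1b4, chr12:105202183-105202267, plus strand: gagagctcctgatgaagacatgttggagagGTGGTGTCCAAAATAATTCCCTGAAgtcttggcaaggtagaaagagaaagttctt
Tcl1b5, chr12:105176158-105176242, plus strand: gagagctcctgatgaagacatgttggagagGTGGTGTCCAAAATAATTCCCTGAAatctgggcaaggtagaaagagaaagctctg

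The shared run of 25 bases lay 170 to 146 bases before the start in Tcl1b1 and began at the first base of the window in Tcl1b3, so no sequence upstream of it is shown for that gene. Searched on both strands, this run was held by 5 of 32851 promoter windows (0.0152%). Those were the windows of the 5 Tcl1b genes that had defined it, so only its absence from the other windows is a result. Over the aligned parts of the windows, the 10 pairs of Tcl1b genes were identical at 91.9% to 99.2% of positions, with the highest value for Tcl1b2 and Tcl1b4. Tcl1 had 77.8% to 81.3% identity with the Tcl1b genes over aligned parts of 107 to 158 bases. By the same measure, which leaves out gapped positions, Tcl1 and the X-linked Mtcp1 had 74.4% over 195 bases. The values of Tcl1 with the Tcl1b genes lie only a little above that. The probe sequences themselves were not analysed here, so whether a Tcl1b probe also captures RNA of another copy was not tested, and each Tcl1b value below is uncertain in this respect.

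The promoters of Tcl1 and Mtcp1 are shown for comparison, as the last 100 bases before the start, with the GC box CCGCCC or its reverse complement GGGCGG in capitals:
Tcl1, chr12:105222738-105222837, minus strand: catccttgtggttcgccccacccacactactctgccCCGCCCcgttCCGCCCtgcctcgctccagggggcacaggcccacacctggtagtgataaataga
Mtcp1 and Cmc4, chrX:75416585-75416684, minus strand: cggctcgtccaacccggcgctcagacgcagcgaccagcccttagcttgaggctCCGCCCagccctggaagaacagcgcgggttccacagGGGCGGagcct

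Mtcp1 and Cmc4 had the same window. The GC box occurred 2 times in the Tcl1 window and 2 times in the Mtcp1 window, but in none of the 5 Tcl1b windows, and 35.7% of all promoter windows held it. The octamer ATTTGCAT, a sequence bound by Oct4, was in none of the member windows and in 1.74% of all windows. TATAAA was in none of them and in 13.6% of all windows. A match or its absence describes only these windows.

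Levels are log2 intensities minus the 75th percentile of the array, so a level of 0 is the intensity that 75% of the probes on that array did not exceed, and a difference of 1 is 2-fold. In scanner units that percentile stood at 145 (young), 155 (aging) and 122 (suppressed aging). The scanner software called 56.4% to 58.7% of the 56591 probes used well above background. The lowest level so called was -4.20, -4.32 and -3.93 in the same order. Where a probe was above background in only 1 condition of a pair, the value is a bound. It is counted from the dimmer level or from the lowest level so called on that array, whichever is higher, without the scanner error. The words "at least" with a bound below leave that error out as well. Where a probe was above background in neither, no difference is given. The error given with an intensity is that of the scanner software's own error model, and the intervals of differences come from it alone, so they cover neither embryos nor labeling. Replicate spots give a second view of that error. Among probes spotted repeatedly with levels in the members' range (13 to 17 per array), the median SD over spots was 0.16 to 0.21, and the largest was 0.49.

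Tcl1, the founding member, was well above background on all 3 arrays and was higher in both aging groups than in young blastocysts. Its intensity was 78.6 ± 8.12 in young, 149 ± 15.1 in aging and 98.4 ± 9.99 in suppressed aging blastocysts. The levels were -0.88, -0.05 and -0.31, so that young was lowest, aging highest and suppressed aging between them. These intensities lay 9.96-fold, 19.3-fold and 12.3-fold above the detection limit of their arrays.

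The Tcl1 difference between aging and young was 0.83 (95% interval 0.43 to 1.24), or 1.78-fold. Suppressed aging differed from aging by -0.27 (-0.67 to 0.14), an interval that holds 0. Against young, suppressed aging differed by 0.57 (0.16 to 0.98). None of these passed 2-fold, and neighbouring aging and suppressed aging levels did not differ beyond the scanner error.

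Probes of about the same brightness give a scale for the Tcl1 values. Among the 2206 probes whose mean level lay within 0.25 of that of Tcl1, the highest 10% of the differences between aging and young began at 1.03, and 20.4% passed 2-fold in either direction. The Tcl1 difference lay below that point. Its other values, -0.27 and 0.57, also lay inside the middle 80% of their probes, which ran from -0.90 to 0.81 and from -0.96 to 0.87.

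**Figure D1:**
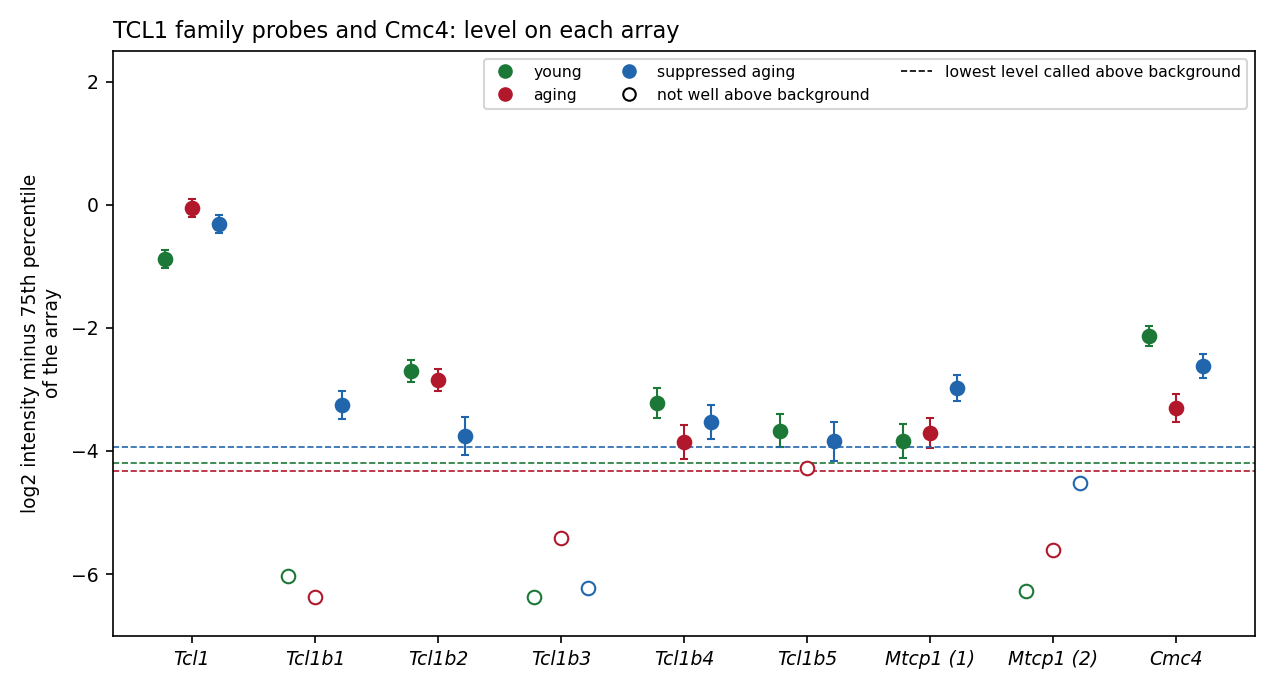
Level of each TCL1 family probe and of the Cmc4 probe on the young, aging and suppressed aging arrays, as log2 intensity minus the 75th percentile of the array, with bars of ± 1 scanner error and dashed lines at the lowest level called above background on each array. Tcl1 lies well above these lines on all 3 arrays at -0.88, -0.05 and -0.31, whereas open circles (Tcl1b3 and the second Mtcp1 probe on every array, Tcl1b1 on 2 and Tcl1b5 on 1) were not well above background.

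The 5 Tcl1b genes, the rodent relatives of Tcl1, lay near the detection limit or below it, and they did not move in 1 direction. Tcl1b2 and Tcl1b4 were above background on all 3 arrays, Tcl1b5 on 2, Tcl1b1 on 1 and Tcl1b3 on none.

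Tcl1b2 was lower in suppressed aging blastocysts than in both other groups. Its intensity was 22.3 ± 2.78 in young, 21.4 ± 2.68 in aging and 9.04 ± 1.93 in suppressed aging blastocysts, with levels of -2.70, -2.85 and -3.76. The young and aging values overlapped within their scanner error, with a difference of -0.15 (-0.65 to 0.35). The suppressed aging array differed by -0.91 (-1.61 to -0.21) from aging and by -1.06 (-1.76 to -0.36) from young, which is 2.08-fold lower and was the only member difference measured on both arrays that passed 2-fold. Among the 1770 probes of like level the middle 80% of the differences between suppressed aging and young ran from -0.80 to 0.86, and 12.8% passed 2-fold. As for Tcl1, only probes above background on both arrays were taken, which near the detection limit leaves out large differences. Before background subtraction, the Tcl1b2 spot had a median pixel intensity of 52, 53.5 and 38 over a local background of 34, 36 and 30, so the suppressed value rests on a spot 8 units above its surroundings. The Tcl1b2 differences of the suppressed array shrank to -0.11 and -0.22 under another background correction (normexp). That correction adds an offset of 50 to every spot, which is more than the Tcl1b2 spot stood above its surroundings on any array. Such an offset by itself makes log2 differences of dim spots smaller, here and in the normexp values below.

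Tcl1b1 was above background only in suppressed aging blastocysts. The intensity was 12.9 ± 2.05 there, at a level of -3.25, against 2.23 and 1.86 in young and aging blastocysts, where it was not well above background. The spot measured 42 over a local background of 24 on the suppressed aging array, and 33 and 31 over local backgrounds of 35 and 33 on the young and aging arrays, where it was thus dimmer than its surroundings. Suppressed aging was higher than aging by a bound of 1.07, or 2.10-fold, and higher than young by a bound of 0.95, or 1.93-fold. The scanner error of the suppressed aging spot is left out of both, so neither is a least difference. Under normexp correction these bounds fell to 0.45 and 0.34, and the first was no longer past 2-fold. The local background was lower on the suppressed aging array (median 29) than on the young and aging arrays (median 39 on both), and its part in the Tcl1b1 result was not tested.

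Tcl1b4 was close to the limit on every array, with intensities of 15.5 ± 2.59 in young, 10.6 ± 2.03 in aging and 10.6 ± 2.00 in suppressed aging blastocysts. Its differences of -0.64 (aging minus young), 0.33 (suppressed aging minus aging) and -0.30 (suppressed aging minus young) all had intervals that hold 0. The Tcl1b4 spot was called well above background on each array although its raw median was below the local background on the young (44.5 against 47) and aging (42 against 43) arrays. Tcl1b5 gave 11.4 ± 2.07 in young and 8.52 ± 1.86 in suppressed aging blastocysts, a difference of -0.17 (-0.98 to 0.63), and a level of -4.27 in aging blastocysts, where it was not well above background. That level lay just above the lowest one called above background on the aging array (-4.32). The bounds of -0.60 (aging minus young) and 0.43 (suppressed aging minus aging) were therefore the plain differences of levels. They are not least differences, since the scanner error is left out. Under normexp correction these bounds shrank to 0.06 and 0.15 in size, and the Tcl1b4 difference between aging and young was -0.07. The differences between suppressed aging and young turned to 0.16 for Tcl1b4 and 0.09 for Tcl1b5 under the same correction. Tcl1b3 was listed at intensities of 1.75, 3.64 and 1.64, with spots no brighter than their local background on any array, so no difference is given.

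**Figure D2:**
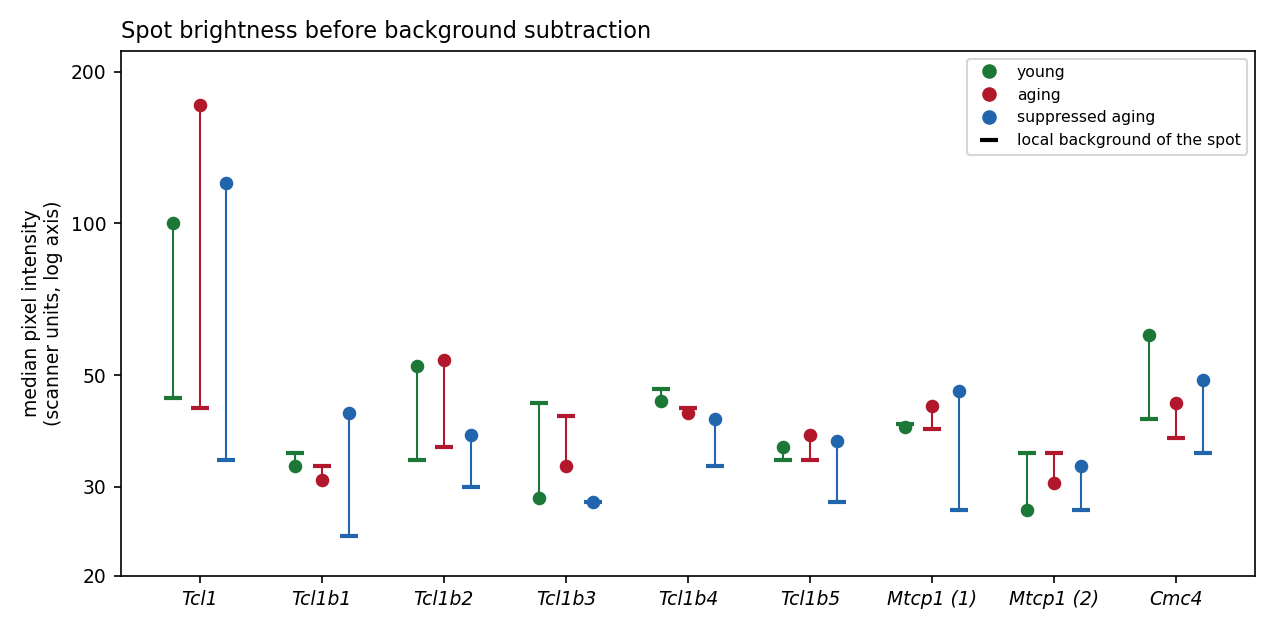
Median pixel intensity of each spot before background subtraction (points, log axis, scanner units) and the local background of the same spot (horizontal ticks) on the 3 arrays. Tcl1 stands clear of its background at 100, 171.5 and 120 against 45, 43 and 34, while the Tcl1b and Mtcp1 spots lie close to theirs, and Tcl1b1 exceeds its background only on the suppressed aging array.

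Mtcp1, whose protein also binds AKT, was measured by its first probe on all 3 arrays and was higher in suppressed aging blastocysts. The intensity was 10.2 ± 1.96 in young, 11.8 ± 2.01 in aging and 15.5 ± 2.29 in suppressed aging blastocysts, at levels of -3.83, -3.71 and -2.98. Young and aging overlapped, with a difference of 0.12 (-0.61 to 0.85). Suppressed aging was higher than aging by 0.73 (0.09 to 1.37), or 1.66-fold, and higher than young by 0.85 (0.16 to 1.54). Under normexp correction these differences were both 0.34, and that between aging and young was -0.00. Of probes at like levels, the middle 80% ran from -0.65 to 0.97 and from -0.65 to 0.73 in these comparisons. The second Mtcp1 difference lay outside its range without normexp correction. These ranges hold only probes above background on both arrays, which near the detection limit leaves out large differences. The place of Mtcp1 outside its range therefore does not set it apart. The raw spot of the first probe measured 39.5, 43.5 and 46.5 over a local background of 40, 39 and 27, so the local background was lowest where Mtcp1 was highest, and its part in the result was not tested. The second Mtcp1 probe was not well above background on any array, at levels of -6.27, -5.61 and -4.52, and so gives no second reading.

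Cmc4, which shares its first exons and promoter window with Mtcp1, had another pattern. Its levels were -2.13 in young, -3.30 in aging and -2.62 in suppressed aging blastocysts. It was thus lowest in aging blastocysts, by -1.17 (-1.73 to -0.62) or 2.25-fold against young, and suppressed aging was higher than aging by 0.69 (0.10 to 1.27). The difference between suppressed aging and young was -0.48 (-0.99 to 0.02). Under normexp correction the aging difference from young was -0.31.

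The family counts were small in every comparison. Between aging and young, 5 of the 8 probes gave a value, 2 of them higher and 3 lower, and their median was -0.15 against -0.03 over all 35758 probes compared. Tcl1b5, among the lower ones, was a bound that counted only because it was above background on the young array. No member passed 2-fold, whereas 9.98% of all probes did so with a higher value and 11.1% with a lower one. Under normexp correction 1 member probe was higher and 4 were lower.

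Between suppressed aging and aging, 6 probes gave a value, 4 of them higher and 2 lower, and their median was 0.38 against 0.02 over all 34752 probes. Of the higher ones, Tcl1b1 and Tcl1b5 were bounds that counted only because they were above background on the suppressed aging array. The 4 probes above background on both arrays stood at -0.27, -0.91, 0.33 and 0.73, so the median of 0.38 rests on these bounds. Only Tcl1b1 passed 2-fold, as a bound, which is 16.7% of the measured members, beside 9.86% of all probes that were higher and 9.1% that were lower by this much. Between suppressed aging and young, 3 probes were higher and 3 lower, and their median was 0.20 against -0.00 over 34959 probes. Tcl1b1, among the higher ones, was again a bound of this kind. Only Tcl1b2 passed 2-fold, in the lower direction, beside 8.88% of all probes higher and 9.19% lower. With 6 measured probes, 1 call does not set the family apart from these shares. The split of 3 higher and 3 lower became 5 higher and 1 lower under normexp correction. The comparisons share arrays, so their values are not independent of each other.

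**Figure D3:**
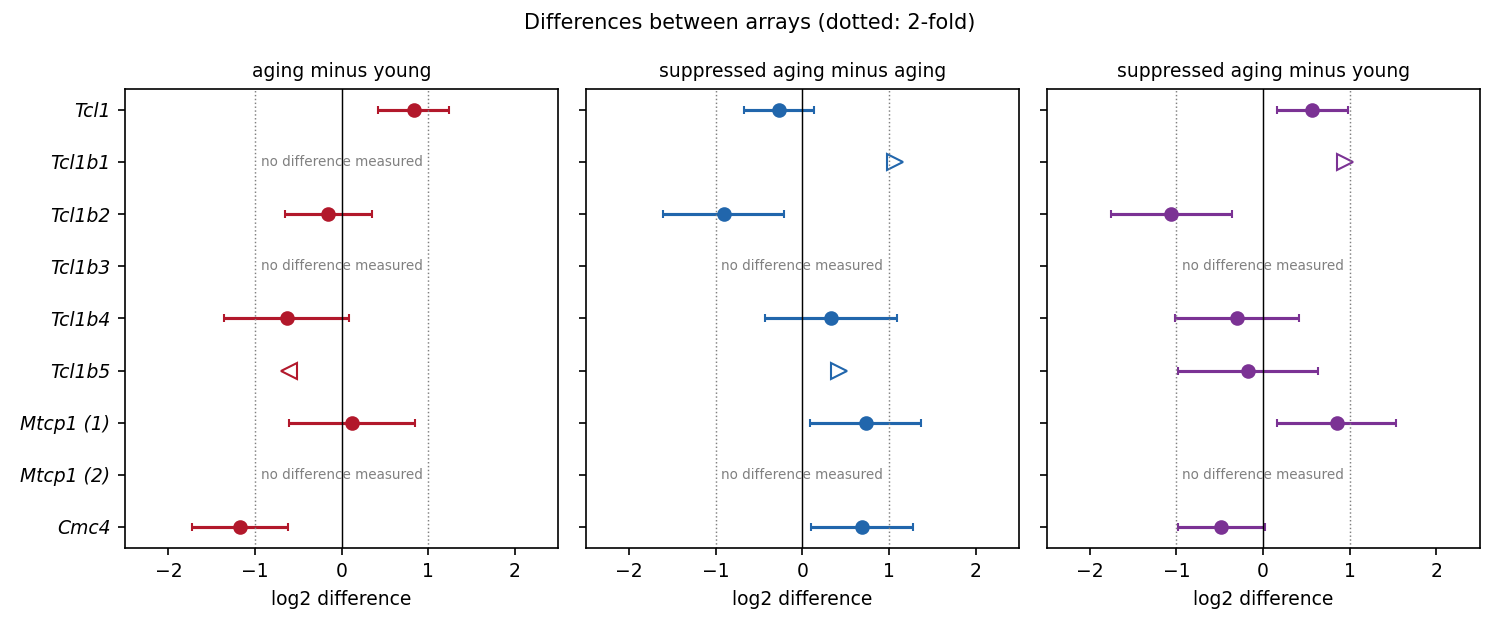
Log2 difference of each member probe and of Cmc4 in the 3 comparisons, with 95% intervals from the scanner error alone, open triangles for bounds and dotted lines at 2-fold. Tcl1 lies at 0.83 between aging and young, Tcl1b1 at a bound of 1.07 between suppressed aging and aging, and Tcl1b2 at -1.06 between suppressed aging and young, and the members do not share 1 direction in any comparison.

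For Tcl1b1, Tcl1b2 and Mtcp1 in the comparisons of the suppressed array, normexp correction changed the values more than any scaling tried did. Over 7 other ways of processing, Tcl1 stayed higher in aging than in young blastocysts, by 0.59 to 0.88, lower in suppressed aging than in aging, by -0.36 to -0.20, and higher in suppressed aging than in young, by 0.38 to 0.58. Mtcp1 was higher in suppressed aging than in aging blastocysts by 0.34 to 0.74 over the same 7. Of these, keeping only probes above background on both arrays cannot change such values. The centrings, the deposited values and the kept outlier spots shift all member probes of an array alike. Only normexp and quantile normalization could move a member relative to the other probes of its array. Quantile normalization and centring on detected probes or on housekeeping genes left Tcl1b2 past 0.8 in size in both comparisons of the suppressed array. Normexp alone brought the Tcl1b2 values near 0, but its offset of 50, added to every spot, makes differences of dim spots smaller by itself. The smaller normexp values of members near the detection limit therefore do not show how far these results depend on the background estimate.

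**Figure D4:**
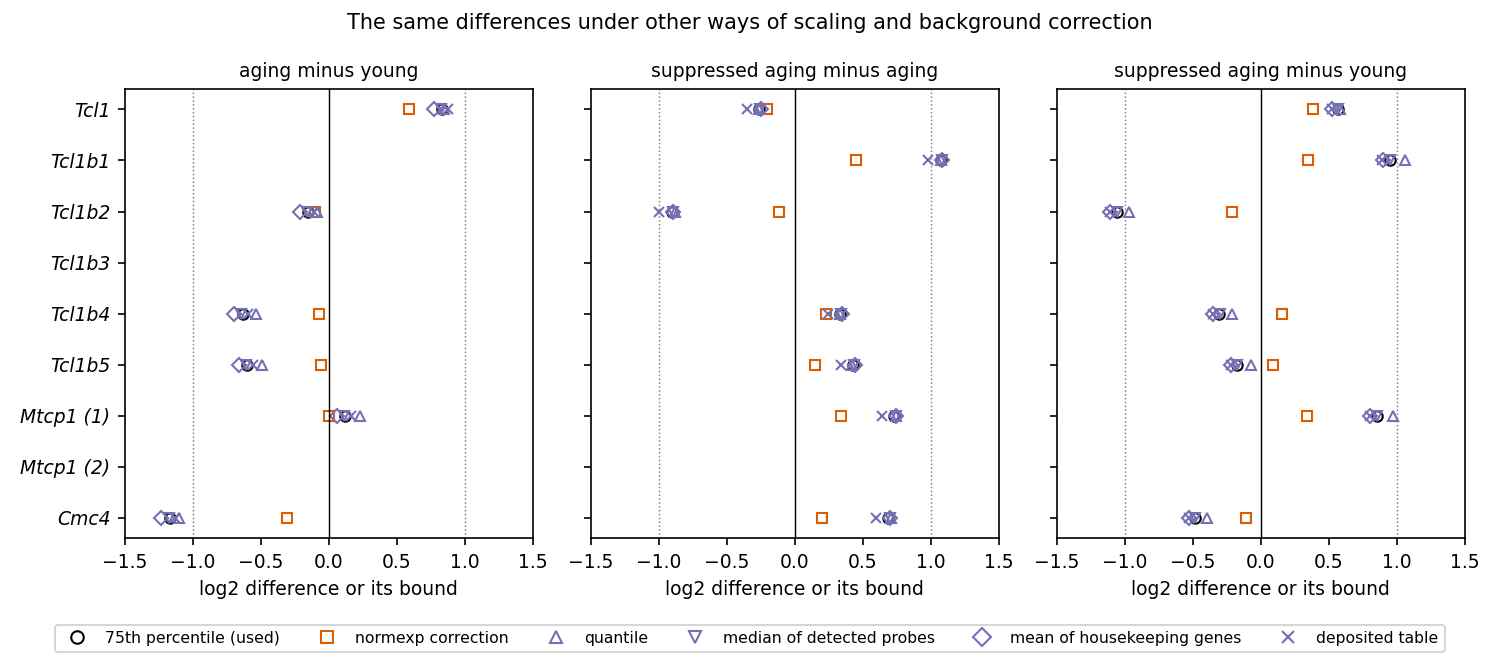
Log2 difference, or its bound, of each member probe and of Cmc4 in the 3 comparisons under 6 ways of scaling and background correction, with dotted lines at 2-fold. The scaling alternatives lie close to the value used, whereas normexp correction (orange squares) lies nearer to 0, at 0.59 for Tcl1 between aging and young and at -0.22 for Tcl1b2 between suppressed aging and young. The offset of 50 that normexp adds to every spot by itself makes differences of dim spots smaller.

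The expression pattern of Tcl1 over the 3 arrays was matched most closely by Rbm15b, Pdxp, Sqstm1, Fkbp5 and Gtf2e1. Likeness was the root mean square difference between levels after each probe was centred on its own mean over the 3 arrays, and it was 0.0070 for Rbm15b, 0.011 for Pdxp, 0.012 for Sqstm1 and 0.013 for both Fkbp5 and Gtf2e1. The centred levels of Tcl1 were -0.47 in young, 0.37 in aging and 0.10 in suppressed aging blastocysts. With 3 arrays such a match is common, since 363 of 13810 genes (2.63%) lay within 0.1 of Tcl1.

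The genes around AKT were described by a list of 33, taken with the brightest probe of each gene. It holds 2 AKT kinases, 12 upstream activators, 6 brakes on the pathway and 13 direct or downstream targets. All but Pik3cg, the catalytic subunit p110γ, were above background on at least 1 array, so 32 gave values in each comparison.

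Akt1 and Akt2, the broadly expressed AKT kinases, differed by less than 2-fold throughout. Akt1 had levels of 1.65 in young, 1.88 in aging and 2.30 in suppressed aging blastocysts. Akt2 had 4.48, 4.70 and 4.88 on the same arrays. Both were thus highest in suppressed aging blastocysts, with differences from young of 0.65 and 0.40. The other Akt1 probe gave 0.14 against young and 0.00 against aging. The other Akt2 probes gave 0.39 and -0.02 between suppressed aging and young, and 0.07 and -0.96 between aging and young.

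Between aging and young, 17 of the 32 genes were higher and 15 lower, and the median was 0.12 against 0.03 over 16164 named genes. Past 2-fold, 1 was higher (3.12%, beside 9.86% of named genes) and 3 were lower (9.38%, beside 9.19%). The higher one was Gsk3a, a kinase that AKT inhibits, at 1.48, and a second Gsk3a probe gave 1.42. The lower ones were Rictor, the defining subunit of mTORC2, at -3.89, Mdm2, the ubiquitin ligase for p53, at -3.12, and Gsk3b at -1.31. Their other probes did not repeat these sizes, with 0.60 and a bound of -0.45 for Rictor, -0.16 for Mdm2, and -0.36 and 0.17 for Gsk3b.

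After suppression, 19 genes were higher and 13 lower than in aging blastocysts, and the median was 0.17 against -0.00 over 15875 named genes. Past 2-fold, 5 were higher (15.6%, beside 8.77% of named genes) and 1 was lower (3.12%, beside 8.5%). The higher ones were Pik3ca (the catalytic subunit p110α) at 1.65, Mapkap1 (the mTORC2 subunit SIN1) at 1.53, Inppl1 (the lipid phosphatase SHIP2) at 1.65, Phlpp1 (a phosphatase that dephosphorylates AKT) at 1.18 and Rps6kb1 (the S6 kinase) at 3.54. The one lower gene was Phlpp2, the relative of Phlpp1, at -1.58. Other probes gave 0.38 and 0.82 for Mapkap1, -0.07 for Inppl1 and 0.86 for Rps6kb1, so that none of the genes with several probes was past 2-fold on more than 1 of them. Both activators and brakes were among the higher genes. By role, 2 of 2 kinases, 5 of 11 upstream genes, 5 of 6 brakes and 7 of 13 targets were higher. Under normexp correction 3 genes in place of 6 passed 2-fold.

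Between suppressed aging and young, 18 genes were higher and 14 lower, and the median was 0.09 against 0.03 over 15931 named genes. Past 2-fold, 2 were higher (6.25%, beside 8.67% of named genes) and 4 were lower (12.5%, beside 7.64%). The higher ones were Inppl1 at 2.40, with 2.51 on its other probe, and Rps6kb1 at 3.84, with -0.54 on its other probe. The lower ones were Rictor at -3.40, Mdm2 at -2.47, Gsk3b at -1.02 and Phlpp2 at -1.31. Other probes gave 0.88 for Mdm2, 0.26 and 0.23 for Gsk3b, and -0.12 and 0.28 for Rictor, so that their lower values were not repeated in size. Phlpp2 had only 1 probe.

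**Figure D5:**
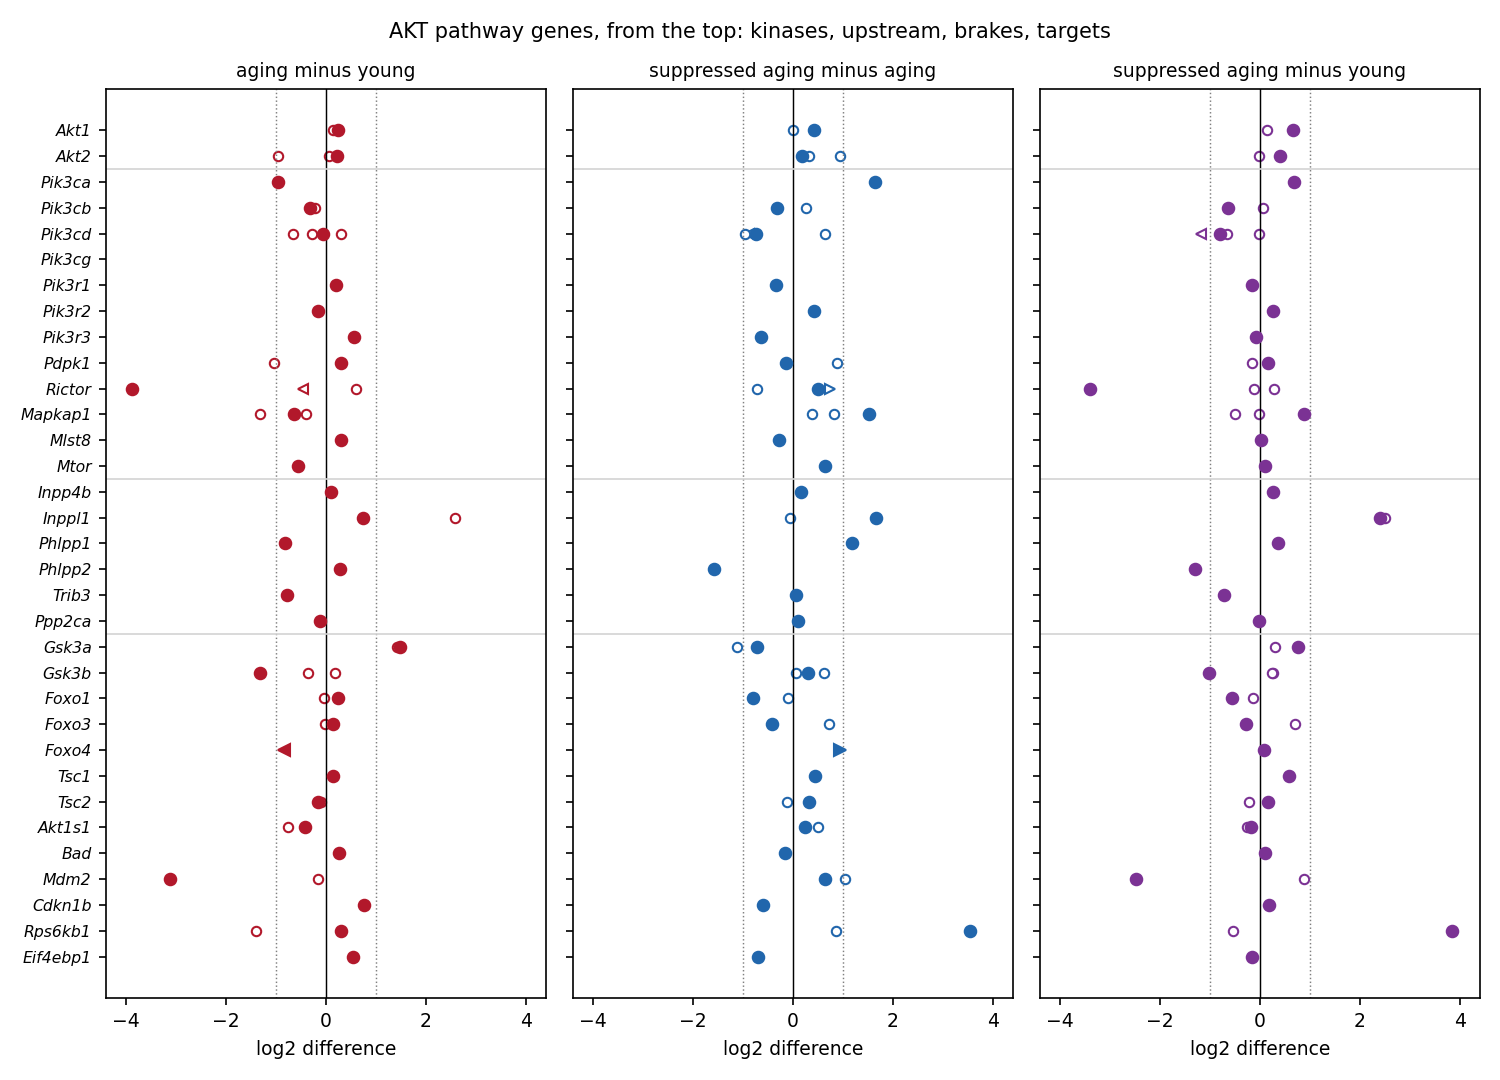
Log2 difference of 33 AKT pathway genes in the 3 comparisons, ordered from kinases through upstream activators and brakes to targets, with filled points for the brightest probe of a gene, open points for its other probes, triangles for bounds and dotted lines at 2-fold. The medians of the filled points lie at 0.12, 0.17 and 0.09, and the largest values, such as Rictor at -3.89 and Rps6kb1 at 3.54, are not repeated by the other probes of the same genes.

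Marker genes of the cells in which Tcl1 is known differed between the arrays as well. The markers of the labeled stage were present, since all 7 inner cell mass, all 7 trophectoderm and all 4 primitive endoderm markers were above background on every array. Of the inner cell mass markers, 6 were higher and 1 lower in aging than in young blastocysts. Their median was 0.36 against 0.03 over named genes, with Pou5f1 at 0.34, Nanog at 0.26, Klf4 at 0.36 and Sox2 at 1.37. Their summed intensity, in units of the 75th percentile, was 1044 in young, 1255 in aging and 1167 in suppressed aging blastocysts, and most of it came from Nanog. Klf4 was lowest in suppressed aging blastocysts, with a difference of -0.44 from young. The summed intensity of the trophectoderm markers was 495, 374 and 441, and the largest part came from Krt18, which differed by -0.53 between aging and young. Of the 7, 5 were lower in aging than in young blastocysts, with a median of -0.19. Tfap2c differed by -1.16, with the opposite sign on its other probe, while Elf5 was higher by 0.91 and Krt8 by 0.01. Of the primitive endoderm markers, Gata6 and Pdgfra differed by 0.99 and 1.28, Gata4 by -0.04 and Sox17 by -1.53. The other Sox17 probe had the opposite sign. Whether the makeup of the embryos had a part in the Tcl1 difference was not tested.

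Oocyte transcripts of maternal origin, to which Tcl1 and the Tcl1b genes also belong in earlier stages, were detected in part. Of 19 such genes, 7 were above background on all arrays and 6 on none. Between aging and young, 12 gave a value, 9 of them higher and 3 lower, and the median was 0.64. Past 2-fold, 5 were higher and 0 lower, which is 41.7% of the measured oocyte genes, beside 9.86% of named genes that were higher. Of these, only Zp2 and Zp3 were above background on both arrays. Bmp15, Bcl2l10 and Npm2 were bounds that gave a value only because they were above background in aging blastocysts. The share and the median thus rest in part on that filter and do not set the oocyte genes apart. After suppression, 4 of 13 were higher and 9 lower than in aging blastocysts, and the median was -0.55. Past 2-fold, 1 was higher and 4 were lower, which is 30.8% of the measured ones, beside 8.5% of named genes that were lower. Of the lower ones, only Bmp15 was above background on both arrays. Zp2, Gdf9 and Bcl2l10 were bounds measured through the aging array alone. The higher one, Nlrp14, was a bound measured through the suppressed aging array alone. Their summed intensity was 200 in young, 208 in aging and 201 in suppressed aging blastocysts, and most of it came from Dppa3, which blastocysts also express, at levels of 7.48, 7.52 and 7.49.

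The oocyte genes used as comparators differed in pattern. The zona pellucida gene Zp3 was at -3.05 in young, -0.97 in aging and -1.51 in suppressed aging blastocysts, so that it had the order of Tcl1 with a larger range. Ooep, of the subcortical maternal complex, was at -0.34, 0.05 and -0.67, and Nlrp5, of the same complex, was at -2.54, -2.84 and -2.64. The oocyte growth factor gene Gdf9 was at -1.99 and -2.05 in young and aging blastocysts and was not well above background in suppressed aging blastocysts. Between aging and young, 3 other genes of the list, chosen after their values were seen, differed most. The zona pellucida gene Zp2 was at -3.29 in young and -0.94 in aging blastocysts, a difference of 2.35, and was lower in suppressed aging than in aging blastocysts by at least 3.00. The oocyte growth factor gene Bmp15 was above background in aging blastocysts and not in young, by at least 2.95, and suppressed aging differed from aging by -2.20. Bcl2l10, of the BCL2 family, was above background in aging blastocysts alone, by at least 2.24 against young and 1.98 against suppressed aging. These 3 genes and Zp3 were highest in aging blastocysts, as Tcl1 was, but the 3 had been picked for their aging values. Npm2, higher in aging than in young by at least 1.29, was highest in suppressed aging blastocysts, at -2.09 against -2.91 in aging. Nlrp14 was above background in suppressed aging blastocysts alone. The part of leftover maternal RNA in the member values was not tested.

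Lymphocytes are another known site of Tcl1. The B-cell marker Ms4a1 was not well above background on any array, while Cd79b, Cd3e and Cd4 were above it on all and Cd79a only on the suppressed aging array. The summed intensity of this list of 5 was 2.68, 2.19 and 2.30. Most of it came from the brighter Cd4 probe, whose difference of -0.54 between aging and young had the opposite sign on the other Cd4 probe. Cd3e differed by 0.26, also with the opposite sign on its other probe. Of 10 cumulus and granulosa cell markers, 5 were above background on all arrays and 5, among them Has2, Ptx3 and Fshr, on none. Their summed intensity was 406, 374 and 439, and most of it came from Foxl2, at levels of 8.66, 8.54 and 8.77. Of the 4 blood markers on the array, Ptprc and Lyz2 were not well above background on any array, and the hemoglobin gene Hba-a1 was above it on all. The summed intensity of the blood list was 0.982, 1.58 and 0.507, so that it was highest in aging blastocysts, as Tcl1 was. Hba-a1 differed by 0.91 between aging and young and by -1.69 between suppressed aging and aging, and Alas2, of heme synthesis, differed by -0.77 between aging and young and was not well above background after suppression. The part of these other cell types in the member values was not tested.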

How the data were processed

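The 3 arrays were 1-color Agilent mouse arrays. Per spot, the authors deposited a scanner intensity (Agilent Feature Extraction 12.0.3.1, background subtracted and spatially detrended, no normalization between arrays). The deposited value table held these intensities times 1 factor per array. The paper's methods describe amplification by global PCR, the labels a cRNA labeling kit.

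Control and outlier-marked spots (85 to 118 per array) were removed, replicate spots averaged as log2 intensity, and the 75th percentile of each array subtracted. Members and gene lists were chosen with earlier results of these data known. Named are all members, Cmc4, listed AKT kinases, AKT pathway genes past 2-fold, fixed oocyte and pluripotency comparators, and the 5 genes closest to Tcl1. Differences past 2-fold were counted and no test was made. The counting was tried on simulated large shifts in probes brighter than any member was on the young array, with less noise than the members' scanner errors. It therefore does not bear on the member values. Alternatives were normexp (limma 3.58.1, offset 50), other scalings, filters and thresholds. Python 3.11.15, NumPy 2.4.6, pandas 2.3.3, Biopython 1.88 (promoter alignment), Matplotlib 3.10.9 and R 4.3.3 were used. Gene names came from RefSeq (GRCm38.p6), not the build of the array design. A few genes of the fixed lists are not reported here, and the counts leave them out.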

Additional observations from a re-analysis of the deposited data

How the results depend on the processing

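No paired analysis was possible because there was a single array for every condition, and no replicate was left out for the same reason. All members but Tcl1 lay near the detection limit or below it, where the values carry the largest scanner errors.

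Normexp correction gave 1 member probe higher between aging and young, and no member probe past 2-fold in either comparison of the suppressed array. It gave 5 member probes higher and 1 lower between suppressed aging and young, and 3 AKT pathway genes past 2-fold between suppressed aging and aging. The authors' value table gave 0 member probes past 2-fold between suppressed aging and aging, as Tcl1b1 came just under it. Keeping only probes above background on both arrays gave 0 past 2-fold and 2 higher in that comparison. All probes without a filter gave 4 member probes higher between aging and young, 2 past 2-fold between suppressed aging and aging, and 3 past 2-fold with 5 higher between suppressed aging and young, with both Mtcp1 probes among the higher ones. At 5-fold no member probe was called in either comparison of the suppressed array, and 2 and 1 AKT pathway genes were called between aging and young and between suppressed aging and aging. The normexp correction adds an offset of 50 to every spot, which by itself makes log2 differences of dim spots smaller. Fewer member probes past 2-fold under it were therefore built in and do not show dependence on the background estimate. The cause of the other shifts was not tested. The other 88 counts of member probes and AKT pathway genes lay within 1.5 times the reported ones. The median of the AKT pathway between aging and young turned from 0.12 to -0.15 when a gene's probes were averaged.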
